A study of Mus musculus with 2 samples.

Results

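The genes described here encode the proteins that hold epithelial cells together: cadherins and their catenins, nectins, claudins and other tight junction proteins, desmosome proteins and connexins, along with Epcam and the protease inhibitors Spint1 and Spint2. The members were a fixed list of 39 symbols, chosen with earlier results of these data known. All 39 were found among the 21983 entries of the deposited count table. They were read in 14837 cells, a mouse pancreatic ductal adenocarcinoma line of the C57BL/6 strain, after 48 h in medium conditioned by cancer-associated fibroblasts (CAFs), the fibroblasts of a tumour's stroma. The labels give no genotype for the line, and they describe 1 library for this medium and 1 for medium conditioned by 14837 cells. Only 1 value column could be tied to a library by its name, the CAF-medium one, so levels within that library are given and the media were not compared.

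Epithelial cells join through several structures. At adherens junctions, classical cadherins bind their like on the neighbouring cell and reach actin through beta-catenin and alpha-catenin, while p120-catenin keeps the cadherin at the surface. Nectins, anchored by afadin, do the same work with another kind of receptor. Tight junctions seal the space between cells with strands of claudins, of which some tighten and others form pores, held by zonula occludens scaffolds. Desmosomes tie keratin filaments together through desmogleins, desmocollins, plakophilins and desmoplakin, and gap junctions are channels of connexins. In pancreatic ducts such proteins hold the epithelium together, and loss of E-cadherin is a widely used sign of a shift towards a mesenchymal state.

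The library held 21269197 counts. Levels are given as counts scaled to a library total of 1000000 (CPM) with exact Poisson 95% intervals, and, to compare genes, as CPM per kilobase of the longest annotated transcript, because a longer transcript collects more counts. The intervals cover counting error only. A single library gives no spread between replicates, so nothing was tested. In such a bulk library, fewer cells carrying a transcript and less of it in each cell cannot be told apart. Genes that every cell uses, such as the ATP synthase gene Atp5a1, were listed at 0. A gene with 0 counts is therefore given only as listed at 0, with no fold against it. By the exact Poisson 95% interval, counting error alone would allow it up to 0.173 CPM, but that is no bound on its level. Where drawn, such a gene is placed at 3 counts, or 0.141 CPM. Whether genes listed with 1 or 2 counts, such as Pkp1, Cdh3 and Epcam, share this limit cannot be told. Folds against them therefore describe the listed counts only. The ductal keratin genes Krt18 and Krt8 stood at 1819 and 797 CPM, and all 6 ductal markers examined had at least 10 counts. Of 10 fibroblast markers 3 had at least 10 counts, namely Pdgfra with 727, Col1a1 with 29 and Fap with 26, while Col1a2, Col3a1, Dcn, Lum and Thy1 were listed at 0. None of 5 endothelial and none of 5 leukocyte markers reached 10 counts, which 52.6% of all entries did.

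Junction genes ranged from some of the higher levels in the library to 0. Of the 39 members, 30 (76.9%) had at least 10 counts, beside 52.6% of all entries. Per kilobase, 16 members (41.0%) reached the level of the median gene, 11.1 CPM per kilobase over entries with at least 10 counts, which 26.3% of all entries with an annotated length did. The median over the 39 members was 4.69 CPM per kilobase, beside 0.395 over all entries with a length. The list was chosen with earlier results of these data known, so these values describe it and test nothing. Of the 21983 entries, 8056 were listed at 0. The members together held 0.452% of all counts, and beta-catenin and alpha-catenin made up 37.2% of that. A further 9 members were under 10 counts, the nearest being Cldn23 with 7 counts, and the lowest of those above was Cdh11 with 14.

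**Figure D1:**
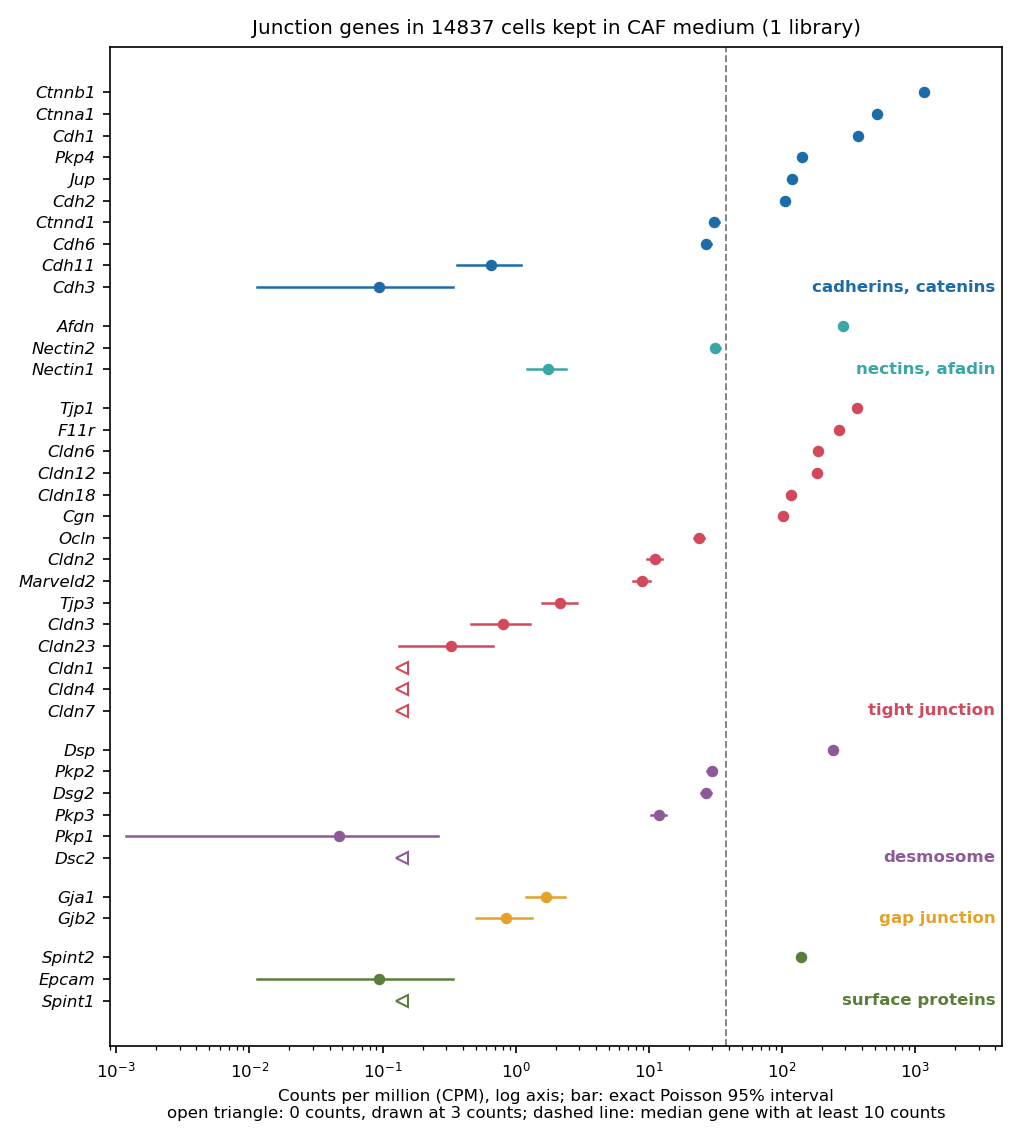
CPM of each of the 39 members on a log axis, in rows grouped by junction, with exact Poisson 95% intervals and open triangles, drawn at 3 counts, for the 5 members listed at 0. Ctnnb1 lies highest at 1160.5 CPM, and every group except the gap junction pair and the nectins holds members both above 100 CPM and under 1 CPM or listed at 0.

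The cadherin at the highest level was E-cadherin, and N-cadherin was present beside it. Cdh1, which encodes E-cadherin and lies on the plus strand of chromosome 8 at 106603351 to 106670246 (mm10), had 7869 counts. That is 370.0 CPM (362 to 378) and 83.5 CPM per kilobase, above 93.4% of genes with at least 10 counts. Cdh2, which encodes N-cadherin, the cadherin of nerve and mesenchymal cells, had 2228 counts, or 105 CPM (100.4 to 109) and 21.6 CPM per kilobase. Per kilobase Cdh1 was 3.86 times Cdh2 (95% interval 3.68 to 4.05), and 6.23 times per kilobase of all exons. Both lay above the median gene, Cdh1 further than Cdh2.

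P-cadherin and the type II cadherins were much lower. Cdh3, the P-cadherin gene of basal epithelial layers, had 2 counts, although it lies on the same strand as Cdh1 and ends 46053 bases before Cdh1 begins. Per kilobase Cdh1 was 3894 times Cdh3, with a counting interval from 1078 to 32157 that reflects those 2 counts. Cdh2 was 1008 times Cdh3 (279 to 8332), and 605 times per kilobase of all exons. Cdh6, a type II cadherin known from kidney, had 576 counts, or 3.32 CPM per kilobase, above 24.1% of genes with at least 10 counts. Cdh11, the cadherin of bone-forming cells and fibroblasts, had 14 counts, or 0.658 CPM (0.36 to 1.1), and Cdh6 was 28.4 times Cdh11 per kilobase (16.8 to 52.4). Cdh2 was 186 times Cdh11 (110.4 to 340.0).

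Cadherins outside the 39 added an intestinal one at a high level. Cdh17, the liver-intestine cadherin, had 4833 counts, or 227 CPM (221 to 234) and 65.6 CPM per kilobase, between Cdh1 and Cdh2. Cdh1 was 1.27 times Cdh17 per kilobase (1.23 to 1.32), and Cdh17 was 3.03 times Cdh2 (2.89 to 3.19). Over 11 cadherins examined, Cdh1 held 47.2% of the summed CPM per kilobase, Cdh17 37.1% and Cdh2 12.2%. Cdh13 and the kidney cadherin Cdh16 had 173 and 65 counts, and Cdh4, Cdh15 and the endothelial Cdh5 were listed at 0.

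Beta-catenin and alpha-catenin had the highest CPM of the 39 members. Ctnnb1, which encodes beta-catenin, the cadherin partner that also acts in Wnt signalling, had 24683 counts, or 1160.5 CPM (1146 to 1175) and 320.3 CPM per kilobase, and ranked 112th per kilobase among genes with at least 10 counts. Exons of other genes, Ulk4 on the opposite strand among them, overlap 15.1% of its exonic bases. Ctnna1, which encodes the alpha-catenin that links beta-catenin to actin, had 11086 counts, or 521 CPM (512 to 531) and 139.6 CPM per kilobase. Its neuronal and heart relatives Ctnna2 and Ctnna3 were listed at 0. Ctnnb1 was 2.29 times Ctnna1 per kilobase (2.24 to 2.35) and 3.84 times Cdh1 (3.74 to 3.93). Ctnna1 was 1.67 times Cdh1 by this length, 1.003 times per kilobase of all exons and 7.04 times per kilobase of the median coding transcript. By that last length, which is short for both catenins, Ctnnb1 was 15.0 times Cdh1.

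Plakoglobin and the p120 family stood lower. Jup, which encodes plakoglobin, a relative of beta-catenin shared by adherens junctions and desmosomes, had 2525 counts, or 119 CPM (114 to 123) and 37.0 CPM per kilobase. Ctnnb1 was 8.65 times Jup (8.3 to 9.01), and 34.2 times per kilobase of the median coding transcript. Ctnnd1, the p120-catenin gene, had 660 counts, or 31.03 CPM (28.7 to 33.5) and 4.88 CPM per kilobase, under the median gene. However, 61.2% of its exonic bases also lie in exons of Gm28635 on the same strand, which was listed at 0, and how reads in shared exons were counted is not given in the sources used here, so the level of Ctnnd1 is uncertain. Pkp4, the p0071 gene of the p120 family, had 2994 counts, or 141 CPM (136 to 146) and 30.5 CPM per kilobase, 6.25 times Ctnnd1. The p120 relatives Arvcf and Ctnnd2 had 5 and 0 counts. Of 15 other adherens junction genes, 7 (46.7%) had at least 10 counts, beside 52.6% of all entries, and 3 (20%) reached the median gene, beside 26.3%, so neither share was above that of all entries. The actin linker vinculin, Vcl, with 25.5% of its exonic bases in exons of another gene, stood at 100.1 CPM and the actin-binding Lima1 at 61.1 CPM, after Cdh17.

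Of the nectin members Nectin2 was the higher, and afadin exceeded it. Nectin2 had 672 counts, or 31.6 CPM (29.3 to 34.1) and 11.6 CPM per kilobase, close to the median gene. Nectin1 had 37 counts, or 1.74 CPM (1.22 to 2.4), and Nectin2 was 37.5 times Nectin1 per kilobase (27.0 to 53.8), 23.4 times per kilobase of the median coding transcript and 18.2 times in counts. Nectin3 and Nectin4, which are not among the 39, had 454 and 5 counts. Nectin2 was 4.93 times Nectin3 per kilobase of the longest transcript but 0.588 times per kilobase of the median coding transcript. Afdn, the gene of the nectin anchor afadin, had 6125 counts, or 288 CPM (281 to 295) and 37.2 CPM per kilobase, 3.22 times Nectin2 (2.98 to 3.5) and 9.11 times in counts.

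**Figure D2:**
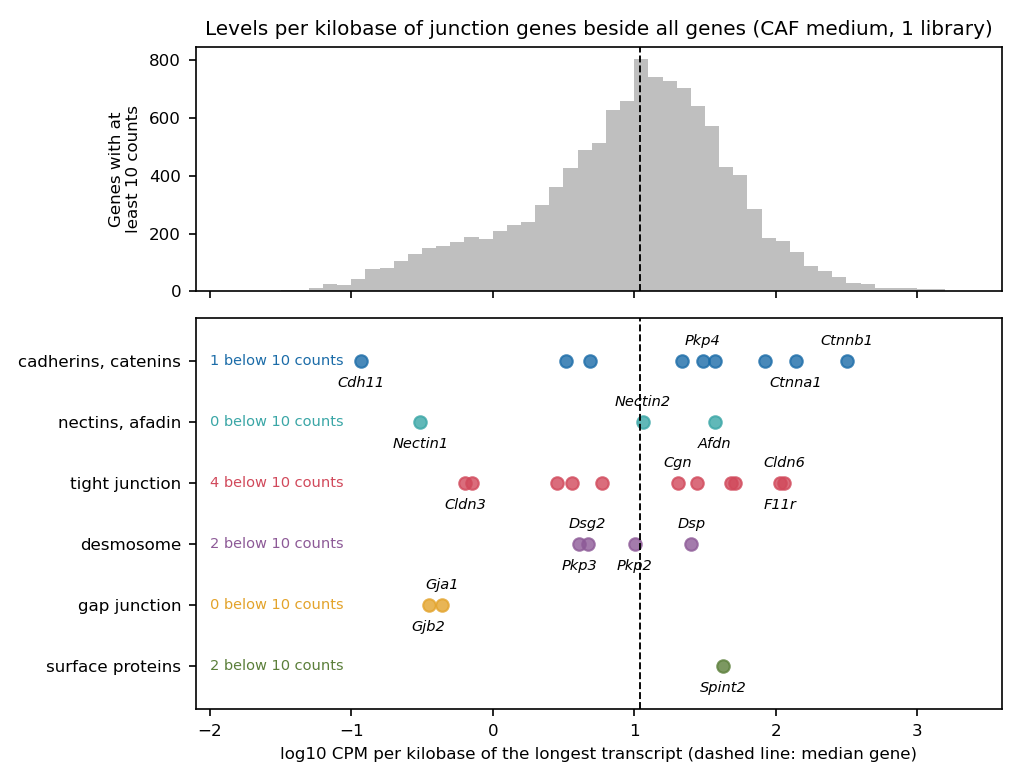
The upper panel is a histogram of log10 CPM per kilobase over genes with at least 10 counts, with a dashed line at the median gene of 11.1 CPM per kilobase. The lower panel places each member with at least 10 counts on the same axis by junction and gives the number below 10 counts. Of the 10 cadherins and catenins 6 (60%) lie beyond the line, beside 26.3% of all entries with a length, but neither gap junction member does.

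Nearly all claudin counts came from 3 genes. Cldn6, a claudin known from embryonic epithelia and germ cell tumours, lies on the plus strand of chromosome 17 at 23679249 to 23682446. It had 3973 counts, or 187 CPM (181 to 193) and 115 CPM per kilobase, above 95.6% of genes with at least 10 counts. Cldn12, a widespread claudin, had 3886 counts, or 183 CPM (177 to 189) and 48.7 CPM per kilobase. Cldn18, the claudin of stomach and lung (chromosome 9, 99689461 to 99717267, minus strand), had 2475 counts, or 116 CPM (112 to 121) and 27.9 CPM per kilobase. Its counts were given per gene, so the stomach and lung forms, which begin at different starts, cannot be told apart. Cldn2, a claudin that forms pores for small cations, had 237 counts, or 11.1 CPM (9.77 to 12.7) and 3.66 CPM per kilobase.

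The claudins usual in ductal epithelium had few counts or were listed at 0. Cldn4 (chromosome 5, 134945119 to 134946934, minus strand), Cldn7 and Cldn1 were each listed at 0. Cldn3, 39279 bases from Cldn4, had 17 counts, or 0.799 CPM (0.466 to 1.28). Cldn23 had 7 counts. Over 19 claudins examined, with those listed at 0 taken as 0, Cldn6 held 58.4% of the summed CPM per kilobase, Cldn12 24.7% and Cldn18 14.1%, together 97.3%. Cldn6 was 2.36 times Cldn12 per kilobase (2.26 to 2.47), but only 1.02 times in counts, and the order of Cldn12 and Cldn18 turns if the median coding transcript is used as length (0.705). Of the other claudins examined, Cldn15 had 35 counts and none of the rest exceeded 1 count.

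The sequences before the starts of Cldn6, Cldn18, Cldn4, Spint2 and Spint1 are shown because these genes include relatives with many counts and relatives listed at 0. They come from RefSeq's promoter table (GRCm38.p6, the assembly named mm10), 5′ to 3′ on the gene's strand and ending at the base before the start, except that Cldn6 is cut where its first GENCODE exon begins. Capitals mark E-boxes of the letters CAGGTG or CACCTG, which are each other's reverse complement, so both strands were searched. E-boxes with these letters are known as sites of the repressors Snail and Zeb in the promoter of E-cadherin. Cldn6 (3973 counts) is chr17:23679115-23679248, plus strand. Cldn18 (2475 counts) has 2 starts, with windows chr9:99717268-99717517 (upstream) and chr9:99710064-99710313 (downstream), both minus strand. Cldn4 (0 counts) is chr5:134946935-134947184, minus strand. Spint2 (2945 counts) is chr7:29281978-29282227, minus strand, and Spint1 (0 counts) is chr2:119237110-119237359, plus strand.
Cldn6: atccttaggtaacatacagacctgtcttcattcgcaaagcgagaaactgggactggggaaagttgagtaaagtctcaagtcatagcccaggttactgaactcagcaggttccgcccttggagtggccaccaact
Cldn18 upstream: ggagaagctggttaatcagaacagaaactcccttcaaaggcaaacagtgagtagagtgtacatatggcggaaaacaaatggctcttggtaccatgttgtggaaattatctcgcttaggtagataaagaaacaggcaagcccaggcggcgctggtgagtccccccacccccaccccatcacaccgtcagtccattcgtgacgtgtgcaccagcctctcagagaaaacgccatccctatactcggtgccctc
Cldn18 downstream: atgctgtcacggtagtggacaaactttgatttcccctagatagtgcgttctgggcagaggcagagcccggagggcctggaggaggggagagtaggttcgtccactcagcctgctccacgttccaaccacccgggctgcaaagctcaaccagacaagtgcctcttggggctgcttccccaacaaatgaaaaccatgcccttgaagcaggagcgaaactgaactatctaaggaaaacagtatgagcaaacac
Cldn4: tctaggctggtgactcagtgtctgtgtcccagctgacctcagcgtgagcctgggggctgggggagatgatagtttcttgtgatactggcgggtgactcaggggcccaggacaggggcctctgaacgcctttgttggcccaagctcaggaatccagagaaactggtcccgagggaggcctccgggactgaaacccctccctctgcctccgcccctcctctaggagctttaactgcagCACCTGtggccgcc
Spint2: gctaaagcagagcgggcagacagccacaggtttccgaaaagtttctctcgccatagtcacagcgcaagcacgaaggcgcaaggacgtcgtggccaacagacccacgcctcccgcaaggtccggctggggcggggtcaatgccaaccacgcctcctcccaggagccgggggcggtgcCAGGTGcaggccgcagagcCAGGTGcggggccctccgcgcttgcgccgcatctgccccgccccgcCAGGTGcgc
Spint1: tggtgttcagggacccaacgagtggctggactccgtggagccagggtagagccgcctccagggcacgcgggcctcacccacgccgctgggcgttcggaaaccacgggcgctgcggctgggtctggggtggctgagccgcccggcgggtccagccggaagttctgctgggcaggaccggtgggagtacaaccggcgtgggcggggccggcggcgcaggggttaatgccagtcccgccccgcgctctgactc

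E-boxes stood before members with many counts and members with few or none. Over 250 bases before each start, Spint2 had 3 of them and Cldn4 had 1, while both Cldn18 windows and that of Spint1 had none. The RefSeq window of Cldn6 had 1, in the stretch left out above because GENCODE places an exon there. Of the 39 members 27 had an entry, with 37 windows, and 12 windows (32.4%) held at least 1 such E-box, beside 17.2% of all 32851 windows of the same length. Cdh1 had no entry, so the promoter of E-cadherin is not in these numbers. RefSeq's sequence runs on past each start, and its end lay in a GENCODE transcript of the same gene for 31 of 37 windows. For Spint2 and Cldn6 it did not, so the place of their starts is uncertain. Among matched members, 8 of 22 with at least 10 counts and 3 of 5 with fewer had one in any window. These are counted per gene, so they cannot be set beside the 17.2%, which is per window. CG steps, the sites of DNA methylation, numbered 24 before Spint2 and 26 before Spint1, so that pair was alike in them. They numbered 7 before Cldn4, 9 in the whole RefSeq window of Cldn6, and 9 and 7 in the upstream and downstream Cldn18 windows. Claudins with many counts and the one listed at 0 were thus alike in them too. The median number of CG steps was 16 over 31 windows of members with at least 10 counts. It was 9 over only 6 windows of members with fewer, and 6 over all windows. Neither the letters nor the CG steps were tested against the levels.

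Among cytoplasmic and adhesion proteins of tight junctions, Tjp1, F11r and Cgn lay above the median gene and Tjp3 far under it. Tjp1, which encodes the scaffold ZO-1, had 7752 counts, or 364 CPM (356 to 373) and 51.7 CPM per kilobase. Tjp3, the gene of ZO-3, had 46 counts, and Tjp1 was 72.3 times Tjp3 (54.1 to 98.8) and 169 times in counts. F11r, which encodes the junctional adhesion molecule JAM-A, had 5713 counts, or 269 CPM (262 to 276) and 107 CPM per kilobase. Cgn, the gene of the cytoplasmic protein cingulin, had 2176 counts, or 102 CPM (98.1 to 107), although 17.1% of its transcript windows also occur in other genes.

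The membrane-spanning partners of claudins lay under the median gene. Ocln, the occludin gene, had 506 counts, or 23.8 CPM (21.8 to 26.0) and 5.87 CPM per kilobase. Marveld2, the gene of tricellulin, which seals the corners between cells, had 188 counts, or 8.84 CPM (7.62 to 10.2) and 2.84 CPM per kilobase. Ocln was 2.07 times Marveld2 per kilobase (1.74 to 2.46), and the third relative Marveld3 had 179 counts. These 3 genes together came to 12.2 CPM per kilobase, beside 197 for the 19 claudins.

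Of 26 other tight junction and polarity genes given here, 15 (57.7%) had at least 10 counts, near the 52.6% of all entries. The level of the median gene was reached by 9 (34.6%), beside 26.3% of entries with a length. The highest per kilobase were the polarity kinase gene Prkci at 57.5 CPM per kilobase, Cxadr, which encodes the coxsackie and adenovirus receptor, at 55.7, and the scaffold gene Magi3 at 42.3. Lsr, needed at tricellular corners, stood at 41.4 CPM per kilobase, but exons of other genes overlap 44.7% of its exonic bases. Mpp5, which encodes the polarity protein PALS1, stood at 29.8, Pard6b at 24.2 and Pard3 at 21.9 CPM per kilobase. Cgnl1, Crb3, Patj and Magi1 lay between 5.54 and 16.9 CPM per kilobase. Besides claudins, Ildr1 was listed at 0, and Jam2 and Jam3 had 5 and 24 counts.

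**Figure D3:**
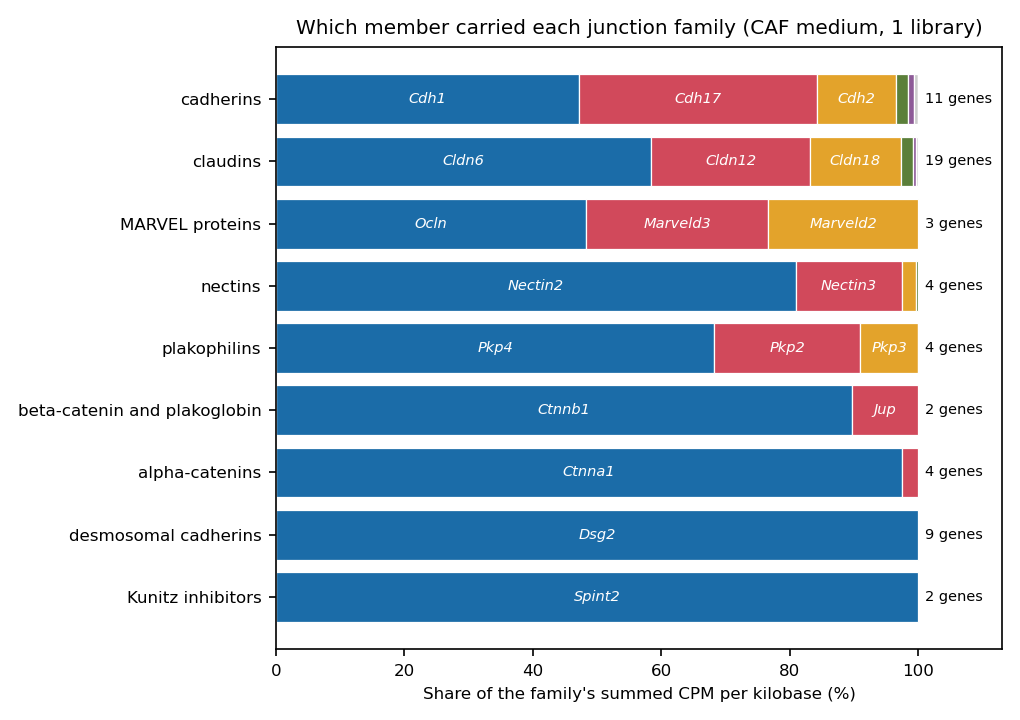
Share of each junction family's summed CPM per kilobase held by each gene, in percent, with the number of genes examined at the right of each bar. Cldn6, Cldn12 and Cldn18 fill 97.3% of the claudin bar, and Cdh1 and Cdh17 84.2% of the cadherin bar.

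Desmosome genes were uneven, with the plaque protein gene Dsp above the median gene and the counts of desmosomal cadherins from 1 gene. Dsp, the gene of desmoplakin, which binds keratin filaments, had 5177 counts, or 243 CPM (237 to 250.1) and 25.4 CPM per kilobase. Dsp was the only desmosome member of 6 (16.7%) above the median gene, beside 26.3% of all entries with a length. Jup, which also serves desmosomes, is not among those 6, since it is counted with the cadherins and catenins. At 37.0 CPM per kilobase it lay above the median gene as well. Dsg2, the desmoglein of simple epithelia, had 575 counts, or 27.0 CPM (24.9 to 29.3) and 4.69 CPM per kilobase. Dsc2, the desmocollin of simple epithelia, was listed at 0. Dsg1a, Dsg1b, Dsg1c, Dsg3, Dsg4, Dsc1 and Dsc3, the desmosomal cadherins of stratified epithelium, were also listed at 0, so all counts of 9 desmosomal cadherins came from Dsg2.

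Plakophilins, which link those cadherins to desmoplakin, differed in level. Pkp2 had 631 counts, or 29.7 CPM (27.4 to 32.1) and 10.1 CPM per kilobase. Pkp3 had 253 counts, or 11.9 CPM (10.5 to 13.5) and 4.08 CPM per kilobase, and Pkp2 was 2.48 times Pkp3 (2.14 to 2.89), and 1.59 times per kilobase of the median coding transcript. Pkp1, the plakophilin of stratified epithelium, had 1 count, and Pkp3 was 405 times Pkp1 per kilobase with a counting interval from 72.0 to 16046, and 253 times in counts. Jup was 1.46 times Dsp per kilobase of the longest transcript, but 0.732 times per kilobase of all exons, so the order of that pair was not settled. Of 10 other desmosome genes 3 (30%) had at least 10 counts, beside 52.6% of all entries. The median gene was reached by 10% of them, beside 26.3% of entries with a length, so both shares were below those of all entries. Perp stood at 73.0 CPM and the plakin genes Ppl and Evpl at 52.9 and 7.66 CPM.

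Neither gap junction member reached the median gene per kilobase. Gja1, which encodes connexin 43, the most widespread connexin, had 36 counts, or 1.69 CPM (1.19 to 2.34) and 0.435 CPM per kilobase. Gjb2, which encodes connexin 26, had 18 counts, or 0.846 CPM (0.502 to 1.34) and 0.352 CPM per kilobase. Their ratio per kilobase of the longest transcript was 1.24 (0.684 to 2.31), within counting error, but it was 0.469 per kilobase of all exons, so no order is given. Among the pannexins, related channel genes, Panx1 had 15 counts.

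Of the 3 epithelial surface proteins, Spint2 alone had more than 2 counts. Spint2, which encodes a Kunitz-type inhibitor of membrane serine proteases and lies on the minus strand of chromosome 7 at 29256323 to 29281912, had 2945 counts, or 138 CPM (134 to 144) and 42.6 CPM per kilobase. Spint1, its relative (chromosome 2, 119237362 to 119249527, plus strand), was listed at 0. St14, which encodes matriptase, the protease both inhibitors act on, was listed at 0 as well, and the related proteases Hpn, Prss8 and Tmprss2 had 0, 73 and 339 counts. Hgfac, a secreted protease that Spint1 is known to inhibit, had 556 counts.

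Epcam, a surface adhesion protein used as a general marker of epithelial and carcinoma cells, had 2 counts, or 0.094 CPM (0.0114 to 0.34). Cdh1 was 1812 times Epcam per kilobase, with a counting interval from 501 to 14963, and 3934.5 times in counts. Epcam was thus listed near 0 in the same library in which Cdh1 and Krt18 were high, and its fold describes the listed counts only. No transcript windows of Epcam, Spint1, Cldn4, Cldn7, Cldn1 or Dsc2 occur in other genes, and no exons of other genes overlap theirs.

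**Figure D4:**
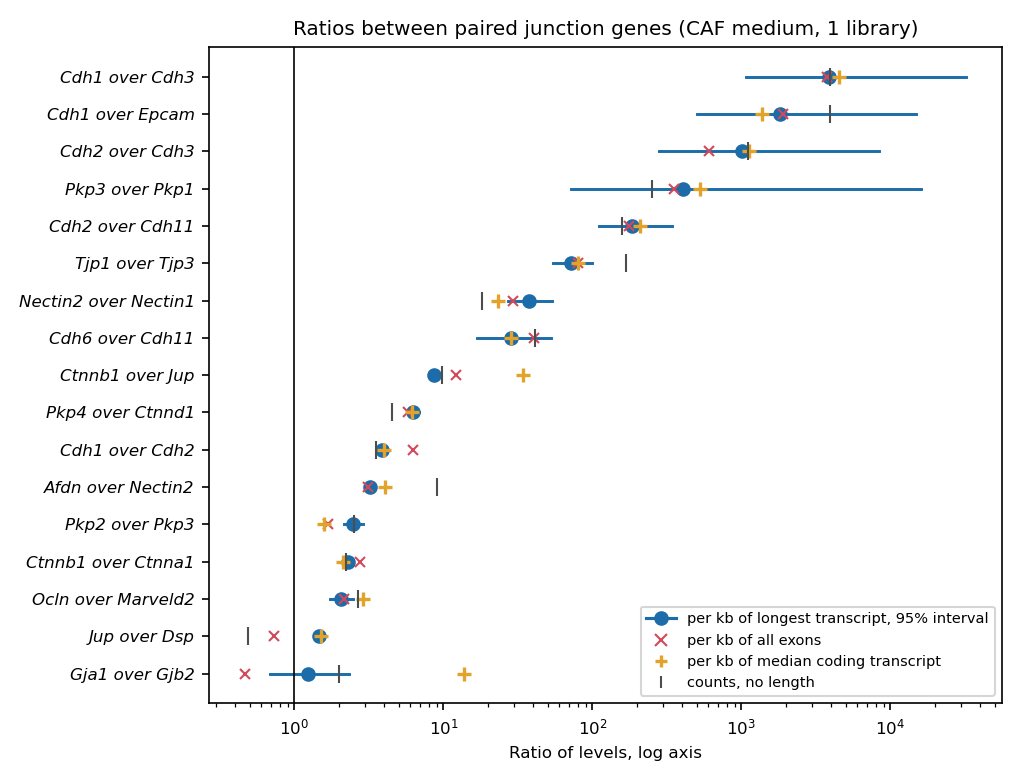
Ratios of levels for 17 pairs of junction genes on a log axis, with counts for both genes, named as the higher gene over the lower one per kilobase of the longest transcript. Filled circles carry exact binomial 95% intervals, and the other marks use other lengths or none, with Jup over Dsp and Gja1 over Gjb2 the pairs whose marks fall on both sides of 1.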

How the data were processed

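Per the labels' protocols, 14837 cells grew in DMEM (10% fetal bovine serum, penicillin at 100 U/ml), spent 48 h in conditioned medium, and libraries were built from 2 ug of Trizol RNA. HISAT2 2.1.0, StringTie and mm10 are listed in the submitters' processing notes, with no role stated. For the counting step, the strand setting and the annotation, details were not given in the sources used here. Deposited values are whole-number counts per gene symbol, made by the authors and not scaled. Of 2 value columns, 1 matched neither library's labels and was not used, so the planned difference between media was not made.

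CPM is the count times 1000000 divided by the column total. Lengths, places, shared exons and shared windows (64 bases, every 16, of the longest transcript) came from GENCODE M21 (mm10), which matched 21900 entries (99.6%). Intervals are exact Poisson for levels and exact binomial for ratios, both at 95%. Their code was run on counts simulated as Poisson, which cannot show whether the deposited counts are Poisson. Of 877 entries with 10 to 30 counts, 37.6% were multiples of 3, beside 33.3% of those whole numbers, so counts may not be plain read numbers and intervals may be too narrow. Sequenced reads can be copies of 1 molecule.

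The 39 members, the wider gene lists, the markers and the 23 pairs were chosen with earlier results of these data known. Family shares, ratios outside the 23 pairs, the motif and the promoters shown were chosen after seeing the levels. All members are named. Some genes of the wider lists, and a pair with one of them, are not reported here, and the 23 pairs are those left. Of these, 6 hold a gene listed at 0 and get no fold. Of each wider list the rule names the 3 highest per kilobase with at least 10 counts and any above its class median, and others named were chosen after their values were seen. Values were computed in Python 3.11.15 with pandas 2.3.3, intervals with scipy 1.17.1 and numpy 2.4.6, and plots with matplotlib 3.10.9.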

Additional observations from a re-analysis of the deposited data

How the results depend on the processing

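Of 17 pairs with counts for both genes, 15 kept their direction under every length tried, though several ratios moved, as given beside them. CPM per kilobase moved by over 1.5 times for 6 members per kilobase of all exons and for 12 per kilobase of the median coding transcript. Jup over Dsp turned to 0.732 per kilobase of all exons and 0.488 with no length. Gja1 over Gjb2 turned to 0.469 per kilobase of all exons, and reached 13.8 per kilobase of the median coding transcript and 2 with no length, both past counting error. The other 6 pairs hold a gene listed at 0, and no fold is given for them. With a minimum of 1 count, 100 counts or 1 CPM, 34, 24 and 27 members were counted in place of 30. The median gene was reached by 16 members per kilobase of all exons, as with the longest transcript, and by 15 per kilobase of the median coding transcript. The share of all entries was computed only for the minimum of 10 counts and for the longest transcript, so these other numbers have none beside them. The share of Cdh1 among cadherins moved to 54.2% per kilobase of all exons, 48.7% per kilobase of the median coding transcript and 49.9% with no length. That of Cldn6 among claudins moved to 59.4%, 47.9% and 37.4%. The length choice also moved class medians. Cadherins and catenins, at 26.1 CPM per kilobase, came to 15.7 (all exons), 28.2 (median coding transcript), 111.7 CPM (no length) and 30.5 (members with at least 10 counts). Tight junction genes, at 3.66, came to 9.74 (median coding transcript), 11.1 CPM and 20.4 (at least 10 counts). Desmosome genes, at 4.38, came to 3.28, 6.97, 19.5 CPM and 7.41. All 39 members, at 4.69, came to 3.35, 7.53, 27.0 CPM and 15.97. Annotated coding transcripts include fragments, such as a median of 348 bases for Gja1, so that length suits some genes poorly. Leaving the 100 highest entries out of the total raised every CPM by 1.16 times. The difference between media was not run. With 1 library, counting error limits only members with few counts, while differences between cultures could not be measured.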
